A study of Mus musculus with 5 samples.

Results

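The genes described here are the cytosolic aminoacyl-tRNA synthetases and a set of genes linked to the transcription factor ATF4, which mediates the cell's response to amino acid shortage. The members were chosen by symbol, 20 synthetase genes (Aars, Cars, Dars, Eprs, Farsa, Farsb, Gars, Hars, Iars, Kars, Lars, Mars, Nars, Qars, Rars, Sars, Tars, Vars, Wars and Yars) and 12 ATF4-linked genes (Atf4, Ddit3, Asns, Chac1, Trib3, Sesn2, Psat1, Phgdh, Shmt2, Mthfd2, Slc3a2 and Slc7a5). All 32 had a row among the 24419 rows of the gene table. RNA-seq was performed on macrophages grown for 5 days from C57BL/6 mouse bone marrow with 50 ng/ml M-CSF (BMMs). All BMMs were activated with 100 ng/ml LPS and then cultured with PBS (n = 2) or with 100 ng/ml recombinant, Fc-tagged Sema3G (n = 3) for 18 h. Sema3G was purified from the medium of a transfected human kidney cell line, and the control was PBS, so an effect of the Fc tag or of the preparation cannot be told apart from one of Sema3G. The PBS samples are titled as untreated, while their treatment label is PBS. There was no arm without LPS. The sources used here do not say whether the samples came from separate mice or cultures, so p values measure only the spread between these samples.

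Aminoacyl-tRNA synthetases join each amino acid to its tRNA and so feed translation. When amino acids run short, uncharged tRNA activates the kinase GCN2, which phosphorylates the initiation factor eIF2. Most translation then slows while that of ATF4 rises, and ATF4 drives genes for amino acid synthesis, amino acid import and tRNA charging, several synthetases among them. Other eIF2 kinases, which sense unfolded protein in the endoplasmic reticulum, double-stranded RNA or heme, feed into the same response. Because ATF4 is controlled largely by translation, its mRNA level is only a partial readout of its activity.

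ATF4 binds DNA together with C/EBP proteins at a composite element whose core is TGATGNAA. This core was searched on both strands, in a window of 250 bases before and 50 bases after each RefSeq gene start in GRCm38.p6, the mm10 build. Of the 32 members 24 had a promoter entry, and the core was found in 8 of them, 5 of 13 synthetase genes and 3 of 11 ATF4-linked genes. The share was 4.51% of all genes with a promoter entry and 3.97% of all promoter windows. The sites are shown because ATF4 is known to bind this element, and a match is not a measured binding site. Each line gives the site nearest the gene start, as 30 bases on the strand of the gene, with the 8 bases of the core, or of its reverse complement, in capitals.
Asns, chr6:7693214-7693243, minus strand: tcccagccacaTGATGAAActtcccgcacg
Chac1, chr2:119351038-119351067, plus strand: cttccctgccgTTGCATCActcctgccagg
Trib3, chr2:152344028-152344057, minus strand: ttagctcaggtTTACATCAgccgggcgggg
Aars, chr8:111033840-111033869, plus strand: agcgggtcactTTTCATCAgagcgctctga
Gars, chr6:55037960-55037989, plus strand: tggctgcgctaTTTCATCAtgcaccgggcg
Iars, chr13:49682126-49682155, plus strand: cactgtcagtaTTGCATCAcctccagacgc
Tars, chr15:11399655-11399684, minus strand: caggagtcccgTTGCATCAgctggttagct
Yars, chr4:129189895-129189924, plus strand: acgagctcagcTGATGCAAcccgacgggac

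The core started 193 bases before the gene start in Chac1, and 30, 23 and 15 bases before it in Gars, Asns and Tars. It lay just after the gene start in the other sites, at base 4 in Yars, 8 in Iars, 10 in Aars and 15 in Trib3. Aars held a further core, not shown, that started 112 bases before its gene start. Asns carries the classical site of this kind. The 250 bases before the RefSeq start of Sars are also shown, a synthetase gene picked for its higher values in the Sema3G samples. Its window held no such core, and neither did those of Farsa, Farsb and Mars, which had lower values there.
Sars, chr3:108445260-108445509, minus strand: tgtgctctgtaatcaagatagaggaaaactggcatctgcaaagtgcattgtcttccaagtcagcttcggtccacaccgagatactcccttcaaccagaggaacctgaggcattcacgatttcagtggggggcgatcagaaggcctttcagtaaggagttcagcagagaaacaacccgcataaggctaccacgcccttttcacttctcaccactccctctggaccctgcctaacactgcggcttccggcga
The windows of Dars, Eprs, Farsa, Farsb, Kars, Mars, Qars, Sars, Atf4, Ddit3, Sesn2, Psat1, Phgdh, Shmt2, Mthfd2 and Slc3a2 held no match, which says only that these letters are not in the window. Cars, Hars, Lars, Nars, Rars, Vars, Wars and Slc7a5 had no entry.

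The values are CPM, the UMIs of a gene scaled to the UMI total of its library. A UMI tags 1 RNA molecule at its 3′ end, so gene length does not enter the values. The libraries held between 1283029 and 1487137 UMIs on listed genes, which was 77.6% and 75.6% of all UMIs with PBS and 71.3%, 67.1% and 65.9% with Sema3G. Rn45s, which encodes the precursor of ribosomal RNA, held 1.01% and 3.19% of all UMIs in the PBS libraries and between 6.31% and 7.88% in the Sema3G libraries. The median log2 fold change of Sema3G over PBS (log2FC, with its standard error as SE) of all 10088 genes tested was -0.22, against -0.038 after scaling by TMM factors. Dividing instead by the UMIs on listed genes without Rn45s, called the listed-gene scale below, gave 0.042. This scale leaves out both Rn45s and all UMIs outside listed genes, and their parts were not told apart. On the CPM scale small negative values are thus near the middle of all genes. The macrophage markers Csf1r, Adgre1, Itgam, Cd68, Fcgr1 and Lyz2 were above 100 CPM in every library, while Mertk was below 3 CPM. No library had more than 5 UMIs on the lymphocyte, dendritic cell, mast cell and basophil or erythroid lists. The neutrophil list summed to between 103 and 167 CPM, almost all of it S100a8, with Mpo at no more than 1 UMI and Elane at 0, and the stromal list to between 3.61 and 14.3 CPM.

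No synthetase gene and no ATF4-linked gene differed between Sema3G and PBS at an adjusted p below 0.05 (limma on log2(CPM + 1), Benjamini-Hochberg over the 10088 genes that averaged 1 CPM or more). At this limit 1.59% of all genes were higher and 0.218% lower, 1.8% in all. In bulk RNA, fewer cells of a type and less RNA per cell cannot be told apart. All 20 synthetase genes were tested, with adjusted p values from 0.120 to 0.986, and 8 of the 12 ATF4-linked genes, with adjusted p values from 0.135 to 0.972. At an unadjusted p under 0.05, Sars and Sesn2 were higher, and Farsa, Farsb, Mars and Atf4 were lower, against 6.83% and 14.2% of all genes. The edgeR quasi-likelihood test on the recovered UMI counts, which called 4.63% of all genes higher and 0.0366% lower, called none of the members it tested, and DESeq2 called none of those to which it gave an adjusted p. Sesn2 and Asns had too few counts for the edgeR test, and DESeq2 gave no adjusted p for Asns, Trib3, Sesn2 and Shmt2, nor for Chac1, Psat1 and Slc7a5. An exact permutation test of 2 samples against 3 cannot give a p below 0.2 when the smaller tail is doubled.

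The synthetase genes were expressed in all 5 libraries, from 14 UMIs for Yars in Sema3G replicate 3 to 312 UMIs for Nars in the same library. Their mean over the libraries ran from 9.09 CPM for Yars to 122 CPM for Nars. By this mean the first 5 were Nars, Eprs, Farsa, Sars and Farsb, and the last 5 were Vars, Iars, Wars, Cars and Yars. Nars lay above every other synthetase gene in each library. The values of Farsa overlapped those of Eprs, and the values of Qars those of Sars. The order of these genes differed between the groups. In the PBS means Farsa and Farsb were ahead of Eprs, and Farsb, Qars and Rars ahead of Sars. In the Sema3G means Eprs was ahead of Farsa and Farsb, and Sars ahead of Farsb, Qars and Rars. The 20 genes summed to 811 and 700 CPM with PBS and to 730, 640 and 692 CPM with Sema3G. These sums overlapped between the groups. On the listed-gene scale they were 1059 and 967 with PBS and 1123, 1072 and 1193 with Sema3G, so that there all Sema3G libraries lay above both PBS libraries. The direction of the summed synthetase level therefore turned with the scaling.

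**Figure D1:**
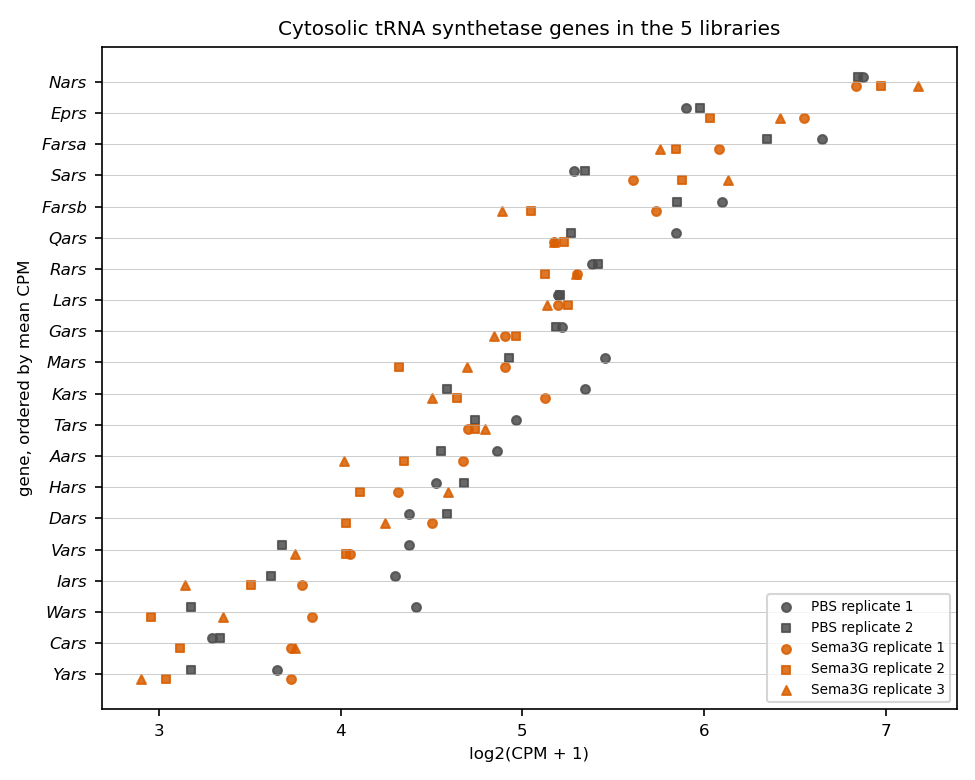
Level of the 20 cytosolic synthetase genes as log2(CPM + 1) (x axis), ordered by mean CPM (y axis), with grey points for the 2 PBS and orange points for the 3 Sema3G libraries. Sars and Eprs lie to the right of both PBS points in all 3 Sema3G libraries, and Farsa and Farsb to the left.

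Sars, which charges serine tRNA, had the largest positive difference of the synthetase genes. It was at 37.9 and 39.6 CPM with PBS and at 47.8, 57.8 and 69.1 CPM with Sema3G. All 3 Sema3G libraries lay above both PBS libraries, which lay close together. The means were 38.8 ± 1.21 CPM (SD, n = 2) and 58.2 ± 10.7 CPM (SD, n = 3), a log2FC of 0.56 (SE 0.22, limma adjusted p = 0.163). In 16 alternatives its log2FC lay between 0.43 and 0.85 and its adjusted p between 0.0356 and 0.505. It passed the limit in 1 of them, on the listed-gene scale.

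Eprs, a bifunctional enzyme that charges both glutamate and proline tRNA, came next. It was at 58.8 and 62.1 CPM with PBS and at 92.9, 64.5 and 84.4 CPM with Sema3G, so the groups did not overlap but Sema3G replicate 2 was close to PBS. Its log2FC was 0.39 (SE 0.21, limma adjusted p = 0.282). Nars, which charges asparagine tRNA, was at 116 and 114 CPM with PBS and at 113, 125 and 144 CPM with Sema3G. Its groups overlapped, with a log2FC of 0.14 (limma adjusted p = 0.697). Cars, the cysteine enzyme, had a log2FC of 0.22 from no more than 27 UMIs in a library (limma adjusted p = 0.735).

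Farsa and Farsb encode the alpha and beta subunits that together form phenylalanyl-tRNA synthetase, and they had the most negative values of the synthetase genes. Farsa was at 99.4 and 80.3 CPM with PBS and at 66.7, 56.4 and 53.0 CPM with Sema3G. Farsb was at 67.6 and 56.7 CPM with PBS and at 52.3, 32.04 and 28.6 CPM with Sema3G. For both subunits every Sema3G library was below both PBS libraries, and Sema3G replicate 1 was the nearest to PBS. The log2FC was -0.60 for Farsa (SE 0.20, limma adjusted p = 0.122) and -0.75 for Farsb (SE 0.25, limma adjusted p = 0.120). Without Sema3G replicate 1 these were -0.70 and -1.01, with adjusted p values of 0.0492 and 0.0221 from limma, in a fit that called 440 of all 10088 genes lower, against 22 with all libraries. Over all 16 alternatives the adjusted p ranged from 0.0492 to 0.595 for Farsa and from 0.0221 to 0.541 for Farsb, and neither passed the limit under any other. Both kept a negative log2FC in all 16, from -0.76 to -0.32 for Farsa and from -1.01 to -0.47 for Farsb. The smallest differences, -0.32 and -0.47, were on the listed-gene scale.

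Mars, the methionine enzyme, was at 42.9 and 29.4 CPM with PBS and at 28.9, 19.0 and 24.9 CPM with Sema3G. Its groups did not overlap, but PBS replicate 2 and Sema3G replicate 1 nearly met, and the log2FC was -0.55 (SE 0.26, limma adjusted p = 0.234). Mars and Ddit3 end tail to tail on chromosome 10, with Mars from 127296221 to 127311786 on the minus strand and Ddit3 from 127290774 to 127296288 on the plus strand in GENCODE M21. Their last exons overlap, and the sources used here do not say whether counting used strand, so UMIs of these genes are uncertain. Exons of Aars overlap Exosc6 on the same strand, and those of Cars, Farsb, Hars, Yars and Shmt2 overlap a gene on the other strand.

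Gars, Qars and Rars, for glycine, glutamine and arginine, were also lower in every Sema3G library than with PBS. The log2FC was -0.30, -0.37 and -0.16, and the limma adjusted p was 0.448, 0.365 and 0.689. The difference of Gars and Rars is close to the median of all genes. Qars was at 56.6 and 37.5 CPM with PBS and at 35.03, 36.6 and 35.03 CPM with Sema3G, so that only PBS replicate 1 stood apart. In all, the groups did not overlap for 2 synthetase genes that were higher and 6 that were lower, or 10% and 30% of the 20, against 11.9% and 26.5% of all genes tested. These shares are near those of all genes.

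The other synthetase genes overlapped between the groups. Lars, the leucine enzyme, was almost level, at 35.7 and 35.9 CPM with PBS and 35.6, 37.0 and 34.1 CPM with Sema3G, a log2FC of -0.0095 (95% interval -0.47 to 0.45). Aars, Dars, Hars, Iars, Kars, Tars, Vars and Yars, for alanine, aspartate, histidine, isoleucine, lysine, threonine, valine and tyrosine, had log2FC values between -0.48 for Iars and -0.083 for Vars. Wars, the tryptophan enzyme, is an interferon-induced gene as well as a synthetase. It was at 20.3 and 8.03 CPM with PBS and at 13.3, 6.77 and 9.22 CPM with Sema3G. The 2 PBS libraries were thus further apart than the group means, and without PBS replicate 1 its log2FC turned from -0.41 to 0.21. Irf1, which encodes a transcription factor of the interferon response, was at 147 and 107 CPM with PBS and at 100.6, 85.3 and 73.3 CPM with Sema3G (limma adjusted p = 0.156). For 9 of the 20 synthetase genes the PBS libraries differed by more than the group means did.

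The median log2FC of the 20 synthetase genes was -0.21, 0.010 above the median of all genes, with 16 negative and 4 positive values. It was -0.044 without PBS replicate 1, 0.088 above the median of all genes there, and -0.37 without PBS replicate 2, which differs from the median of all genes there by -0.074. On the listed-gene scale, 12 were positive and 8 negative, and after TMM scaling 8 were positive and 12 negative. The 95% interval of the log2FC lay within a 2-fold change in either direction for 14 of the 20. It reached a 2-fold lower level for 5, Farsa, Farsb, Iars, Mars and Wars, and a 2-fold higher level for Sars. Enzymes of the cytosolic multisynthetase complex (Dars, Eprs, Iars, Kars, Lars, Mars, Qars and Rars) had a median of -0.21 and the other 12 a median of -0.23. Class I enzymes, with a Rossmann-fold catalytic domain, had a median of -0.18, and class II enzymes one of -0.24. Eprs was counted as class I for its glutamate part, although its proline part is of class II. The values thus differed more within each of these groups than between them.

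**Figure D2:**
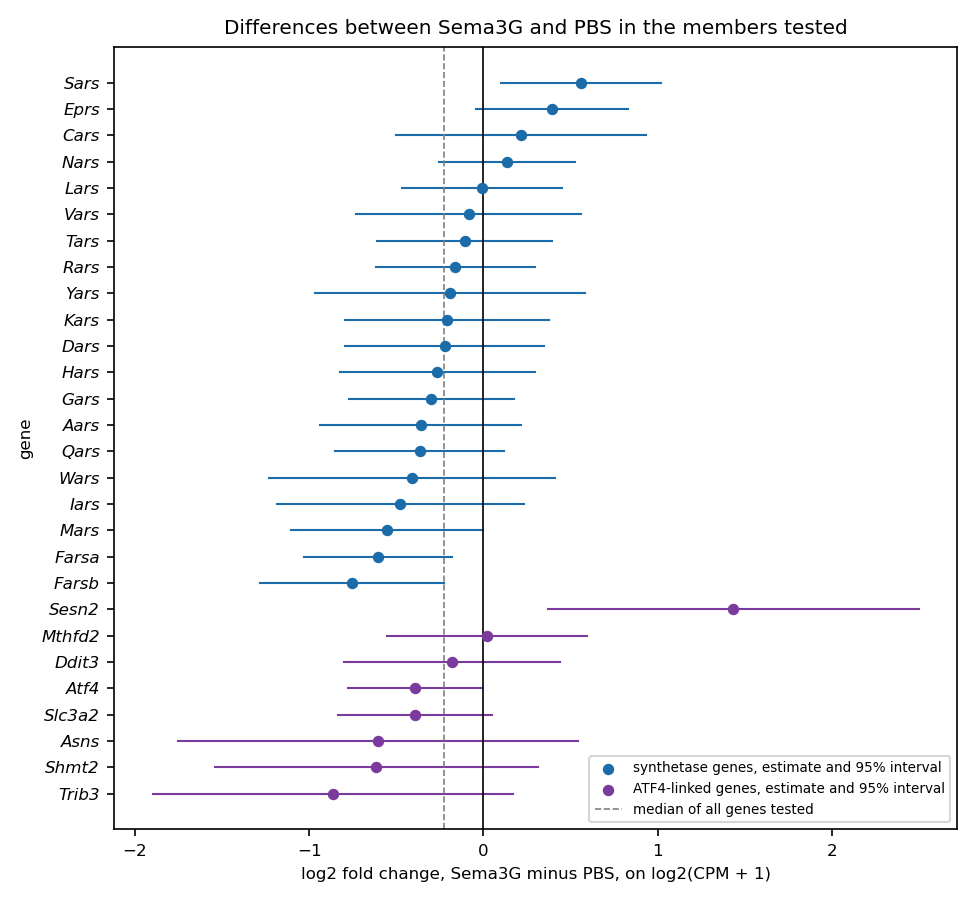
Log2FC of Sema3G minus PBS on log2(CPM + 1) (x axis) of the 28 members tested (y axis), with points for estimates and lines for 95% intervals from limma. The dashed line is the median of all genes at -0.22, and Sars, Farsa, Farsb, Mars, Sesn2 and Atf4 have intervals that leave out 0.

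Atf4 itself was abundant. It was at 214 and 226 CPM with PBS and at 182, 174 and 148 CPM with Sema3G. Every Sema3G library lay below both PBS libraries, with means of 220 ± 8.23 CPM (SD, n = 2) and 168 ± 17.5 CPM (SD, n = 3). The log2FC was -0.39 (SE 0.18, limma adjusted p = 0.229), 0.17 below the median of all genes, and it stayed between -0.45 and -0.10 in 16 alternatives. Ddit3, which encodes CHOP, a stress transcription factor downstream of ATF4, was at 34.6 and 26.8 CPM with PBS and at 42.8, 23.02 and 19.4 CPM with Sema3G. Its highest and its lowest values were both in Sema3G libraries (log2FC -0.18, limma adjusted p = 0.748). Trib3, a pseudokinase gene induced by ATF4 and CHOP, counted 8 and 19 UMIs (PBS) and 8, 3 and 11 UMIs (Sema3G). Its groups overlapped, with a log2FC of -0.86 (SE 0.49, limma adjusted p = 0.318). With 1 library left out the log2FC of Trib3 ran from -1.39 to -0.34.

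Sesn2 encodes sestrin 2, a leucine sensor that restrains the growth kinase complex mTORC1, and it had the largest positive difference of all members. It counted 1 and 3 UMIs (PBS) and 5, 9 and 16 UMIs (Sema3G), or 0.549 and 1.61 CPM against 2.78, 4.06 and 7.38 CPM. The groups did not overlap, though PBS replicate 2 and Sema3G replicate 1 were 2 UMIs apart. Its log2FC on log2(CPM + 1), which understates the change of low genes, was 1.43 (SE 0.51, limma adjusted p = 0.135). The ratio of the pooled UMI levels was 4.47, with a 95% exact binomial interval of 1.58 to 17.5 that covers counting error only. The log2FC lay between 0.66 and 2.36 over the 13 alternatives that gave a value, and the adjusted p ranged from 0.0685 to 0.477 over those with an adjusted p, DESeq2 having none.

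The first enzymes of serine synthesis were at the floor of detection. Phgdh, which starts the pathway, had 0 UMIs in all 5 libraries, which allows a level of up to 1.65 and 1.61 CPM with PBS and of up to 1.67, 1.35 and 1.38 CPM with Sema3G, taking a limit of 3 counts. Psat1, the next enzyme, counted 1 and 1 UMIs (PBS) and 2, 0 and 0 UMIs (Sema3G). Psph, the last enzyme of the pathway and not a member, is named after its values were seen, and it counted 6 and 1 UMIs (PBS) and 3, 7 and 5 UMIs (Sema3G), with overlap between the groups (log2FC 0.37, limma adjusted p = 0.717). Asns, which makes asparagine and carries the ATF4 element shown above, counted 5 and 3 UMIs (PBS) and 2, 4 and 1 UMIs (Sema3G) (log2FC -0.61, SE 0.55, limma adjusted p = 0.529). Chac1, a glutathione-degrading enzyme induced through ATF4, had 2 and 0 UMIs with PBS and 0 in each Sema3G library. Phgdh, Psat1, Chac1 and Slc7a5 lay below the minimum mean of 1 CPM. With no filter, the 3 of them with any UMI were tested and none was called. No fold is given for them, since each library was at or under 3 counts, where a difference was not detectable at this depth.

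The mitochondrial enzymes that use serine for one-carbon units were present. Shmt2, which splits serine into glycine and a one-carbon unit, counted 11 and 13 UMIs (PBS) and 12, 5 and 8 UMIs (Sema3G) (log2FC -0.61, limma adjusted p = 0.427). Mthfd2, the next enzyme, was at 19.8 and 21.9 CPM with PBS and at 18.3, 27.98 and 18.4 CPM with Sema3G, and its groups overlapped (log2FC 0.022, 95% interval -0.55 to 0.60).

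Slc3a2, the heavy chain shared by several amino acid exchangers, was the most abundant member at 371 and 244 CPM with PBS and 278, 205 and 210 CPM with Sema3G. Its groups overlapped because PBS replicate 2 lay below Sema3G replicate 1 (log2FC -0.39, SE 0.21, limma adjusted p = 0.294). The log2FC was -0.090 without PBS replicate 1 and -0.69 without PBS replicate 2. Its light chain Slc7a5, which carries large neutral amino acids such as leucine, counted 0 and 2 UMIs (PBS) and 2, 0 and 1 UMIs (Sema3G). Another light chain of Slc3a2, the cystine and glutamate exchanger Slc7a11, was at 135 and 110 CPM with PBS and at 85.6, 95.2 and 92.7 CPM with Sema3G (log2FC -0.41, limma adjusted p = 0.222).

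**Figure D3:**
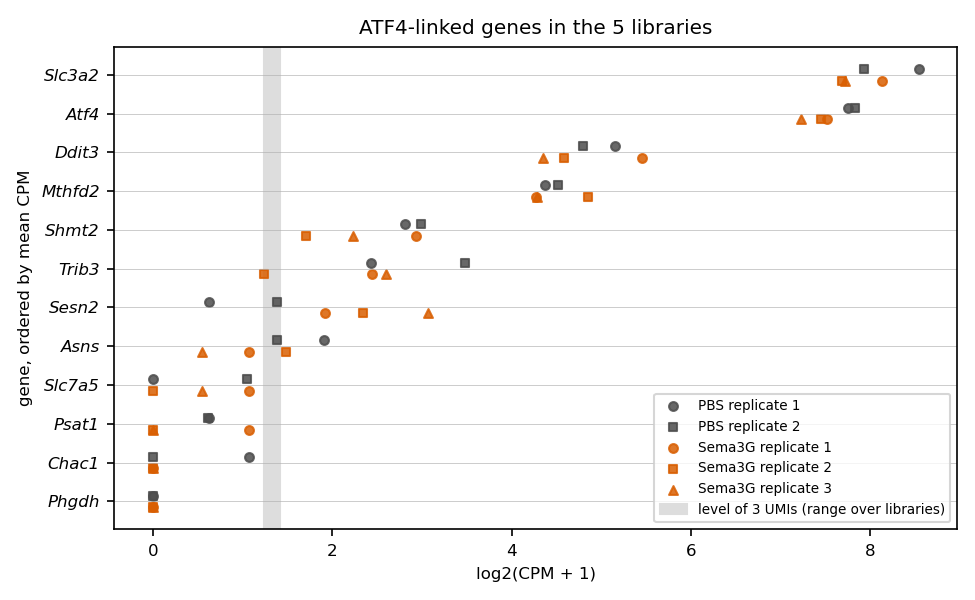
Level of the 12 ATF4-linked genes as log2(CPM + 1) (x axis), ordered by mean CPM (y axis), with grey points for the 2 PBS and orange points for the 3 Sema3G libraries and a band at the level of 3 UMIs. Phgdh, Chac1, Psat1 and Slc7a5 lie below the band in every library, while Slc3a2 and Atf4 lie far above it.

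The 8 ATF4-linked genes tested had a median log2FC of -0.39, with 6 negative and 2 positive values. It differed from the median of all genes by -0.17, and this difference was -0.086 without PBS replicate 1, -0.058 without PBS replicate 2 and -0.25 without Sema3G replicate 1. The median of the ATF4-linked genes lay 0.18 below that of the synthetase genes. In the same libraries the median level of the ATF4-linked genes relative to that of the synthetase genes, on log2(CPM + 1), was -1.61 and -0.83 with PBS and -1.30, -1.23 and -1.07 with Sema3G. The Sema3G values lay between the PBS values, and without PBS replicate 2 the difference of the medians of the log2FC values was 0.016. A difference between the lists was therefore not larger than the spread between replicates. The groups did not overlap for 1 ATF4-linked gene that was higher, Sesn2, and 1 that was lower, Atf4, which is 12.5% of the 8 each, against 11.9% and 26.5% of all genes tested. The 12 genes summed to 655 and 540 CPM with PBS and to 538, 440 and 413 CPM with Sema3G, mostly Slc3a2 and Atf4. These sums did not overlap, but on the listed-gene scale they were 855 and 746 with PBS and 828, 737 and 712 with Sema3G, and overlapped.

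**Figure D4:**
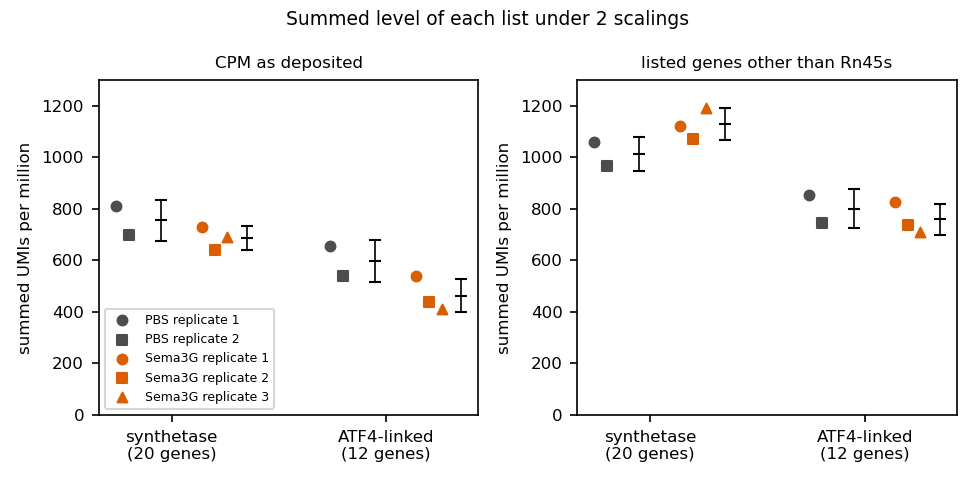
Summed scaled UMIs (y axis, from 0) of the 20 synthetase and 12 ATF4-linked genes in each library, as deposited CPM (left) and on the listed-gene scale (right), with bars for mean ± SD. The synthetase sum of the Sema3G libraries, at 640 to 730 CPM on the left, overlaps PBS there and lies above PBS on the right.

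No member with a TGATGNAA core in its promoter window differed past the limit. All 7 of them that could be tested had a negative log2FC, with a median of -0.36, against 10 of 14 tested members without the core, with a median of -0.29. Over all tested genes with a promoter entry, 64.1% of the 220 with the core and 67.6% of the 7626 without it were negative, with medians of -0.21 and -0.23. These signs are those of the CPM scale, and on the listed-gene scale Tars and Yars were at 0.18 and 0.072.

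In 7 further lists of the pathway, 1 of 79 genes tested passed the limit, or 1.27%, against 1.8% of all genes. Of 20 mitochondrial synthetase genes, 19 were tested and none was called, with a median log2FC of -0.29. The most abundant were Iars2, the mitochondrial isoleucine enzyme, at -0.31 (limma adjusted p = 0.465), and Gatc, a subunit of the mitochondrial glutaminyl-tRNA amidotransferase, at -0.38 (limma adjusted p = 0.455). Of 8 genes of the synthetase scaffold and of tRNA handling, 6 were tested and none was called. Aimp1, a scaffold protein of the multisynthetase complex, had a log2FC of 0.017, and Xpot, which exports tRNA from the nucleus, one of -0.24.

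All 9 genes of the eIF2 kinases, the eIF2 phosphatase subunits and their partners were tested and none was called. Their median was 0.10, which is 0.33 above that of all genes. The largest difference was in Gcn1l1, a partner gene named after its values were seen. It was at 4.40 and 5.89 CPM with PBS and at 7.78, 12.2 and 12.9 CPM with Sema3G (log2FC 0.94, limma adjusted p = 0.162). Eif2ak1, the heme-regulated eIF2 kinase, had a log2FC of 0.23, which ran from 0.023 to 0.44 with 1 library left out. Ppp1r15b, which directs a phosphatase to eIF2, had a log2FC of -0.098. Of 20 further ATF4 or CHOP targets, 17 were tested and none was called, with a median of -0.35. Cebpb, a C/EBP partner of ATF4, was at 527 and 600 CPM with PBS and at 373, 405 and 404 CPM with Sema3G. Its groups did not overlap, with a log2FC of -0.51 (SE 0.18, limma adjusted p = 0.138). Ero1l, an oxidase of the endoplasmic reticulum, was at 114 and 219 CPM with PBS and at 90.1, 125 and 120 CPM with Sema3G. Its groups overlapped, with a log2FC of -0.52 (limma adjusted p = 0.229) that was -0.048 without PBS replicate 2.

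Of 18 amino acid and one-carbon enzymes, 9 were tested and none was called. Glul, which makes glutamine, was at 916 and 953 CPM with PBS and at 699, 645 and 721 CPM with Sema3G, without overlap (log2FC -0.44, limma adjusted p = 0.208). Mthfd1l, a mitochondrial one-carbon enzyme, had a log2FC of -0.23. Aldh1l2, Gldc, Pycr1, Cth and Cbs, named after their values were seen, had 0 UMIs in all 5 libraries. Of 14 further amino acid transporter genes, 11 were tested and none was called, and the most abundant, Slc43a2, a carrier of neutral amino acids, had a log2FC of -0.32 (limma adjusted p = 0.323).

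Among 8 genes of the unfolded protein response outside the ATF4 branch, Pdia4 rose. It encodes a protein disulfide isomerase of the endoplasmic reticulum. It counted 6 and 13 UMIs (PBS) and 24, 37 and 50 UMIs (Sema3G), or 3.30 and 6.96 CPM against 13.3, 16.7 and 23.05 CPM. All Sema3G libraries were above both PBS libraries, with a log2FC of 1.64 (SE 0.36, limma adjusted p = 0.0261, edgeR adjusted p = 0.0162). It passed the limit in 11 of 16 alternatives. Its limma adjusted p was 0.0568 with no filter, 0.213 with Sema3G replicates 2 and 3 averaged, 0.138 without PBS replicate 1, 0.118 without Sema3G replicate 2 and 0.200 when Sema3G replicate 3 was left out. The other 7 genes of the list had log2FC values between -0.34 and 0.26 and were not called.

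**Figure D5:**
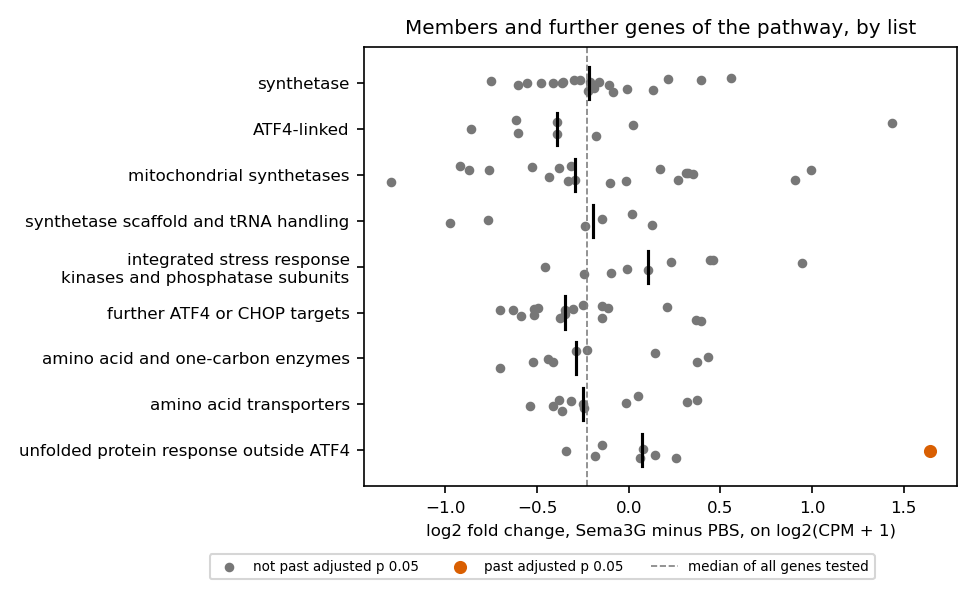
Log2FC of Sema3G minus PBS on log2(CPM + 1) (x axis) of every tested gene in the member lists and 7 further lists (y axis), with a bar at the median of each list and a dashed line at the median of all genes. The only gene past the limit, in orange, is Pdia4 at 1.64, and the list medians lie between -0.39 and 0.10.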

How the data were processed

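RNA-seq libraries of RNA 3′ ends with UMIs were made from 5 samples. After mapping to mm10, UMI counts came from Strand NGS and normalization from EdgeR (3.12 in the submitters' processing notes). The sources used here do not give the gene annotation, the handling of reads with several matches or the use of strand. The deposited table holds CPM by library beside p-values, q-values and ranks from the authors' own comparison, which were left unused. Dividing each CPM by the smallest step of its library returned whole UMI counts (100% of values within 0.01 of a count) and library totals from 1798469 to 2215855. In the file 11627 of 24419 rows were at 0 in all libraries.

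Genes averaging 1 CPM or more entered limma 3.58.1 in R 4.3.3 as log2(CPM + 1), using a variance trend, and were called when the Benjamini-Hochberg adjusted p was below 0.05. edgeR (4.0.16, quasi-likelihood test, 8207 genes) and DESeq2 (1.42.0) on the recovered counts were alternatives. In data simulated for this comparison with 200 genes changed 4-fold, limma found 96.5% of those among 10077 genes and made 8 false calls. The simulated spread was the same for every gene, only genes with enough counts were changed, and Rn45s did not differ. The simulation therefore does not give the power for the members, most of which differed by less than 4-fold. The chi-square per degree of freedom between Sema3G replicates 2 and 3 was 1.77, beyond sampling noise, against 6.57 to 29.6 for the other pairs. The sources used here do not say whether these 2 come from 1 culture. All 5 samples were counted separately, and if they do, n is overstated and the p-values are too small. Averaging them, an alternative, gave 19 calls in place of 182. Intervals and limits from counts cover counting error only.

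The members, lists, tests and alternatives were chosen with earlier results of these data known. All members are named. Of the further lists, genes past the limit or among the 4 with the highest mean CPM could be named, and those given are the called gene or the first 2 by mean CPM, with Irf1 beside Wars. Psph, Gcn1l1 and 5 enzyme genes at 0 were added after their values were seen. Some planned items are not reported here. No test was run over a list. Gene models came from GENCODE M21 and promoters from RefSeq (GRCm38.p6).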

Additional observations from a re-analysis of the deposited data

How the results depend on the processing

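With 2 PBS and 3 Sema3G libraries, low counts limit what can be seen of the members, and the 95% intervals of the synthetase genes had half-widths from 0.39 to 0.82 on the log2 scale. A PBS group reduced to 1 library takes its spread from the Sema3G group. The cause of a change between settings was not tested.

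The number of all genes called, 182, was 108 with no filter, 325 with TMM-scaled CPM, 498 on the listed-gene scale (CPM over listed genes without Rn45s), 383 with edgeR's quasi-likelihood test, 309 with limma-voom and 19 with Sema3G replicates 2 and 3 averaged. The split of 160 higher and 22 lower became 322 and 3 with TMM-scaled CPM, 496 and 2 on the listed-gene scale, 380 and 3 with edgeR and 234 and 1 with DESeq2. With 1 library left out the number ranged from 27 to 710, at 99 without PBS replicate 1, 710 without Sema3G replicate 1 (270 higher and 440 lower), 27 without Sema3G replicate 2 and 32 without Sema3G replicate 3. The number of synthetase genes called, 0, was 1 (Sars) on the listed-gene scale and ranged from 0 to 2 with 1 library left out, the 2 being Farsa and Farsb without Sema3G replicate 1. No ATF4-linked gene was called under any alternative that gave it an adjusted p. The difference of the medians of the 2 lists ranged from -0.20 to 0.016 over all alternatives.

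The replicate numbers are shared by PBS and Sema3G, but the labels do not say that they pair the samples. The deviations of same-numbered libraries from their group means had correlations of 0.17 and 0.11, against 0.097 for PBS replicate 2 with Sema3G replicate 3. With 2 PBS libraries the PBS deviations mirror each other, so these correlations cannot show whether the samples are paired. With the replicate number as a block, which leaves Sema3G replicate 3 without weight and 1 residual degree of freedom, 573 genes were called, 298 higher and 275 lower, and no member, so calls in it say little. Cebpb (adjusted p = 0.0358 from limma) and Ero1l (0.0274) passed in this fit, and Ero1l also without PBS replicate 1 (-0.98, 0.0433), while without PBS replicate 2 it was at -0.048 (0.927).

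Log2 fold changes of these genes, none of them called, changed sign under other settings. With TMM-scaled CPM they were 0.19 for Lars, 0.10 for Ppp1r15b, 0.017 for Ddit3, 0.091 for Tars, 0.11 for Vars and 0.039 for Rars. On the listed-gene scale they were 0.28 for Lars, 0.19 for Ppp1r15b, 0.10 for Ddit3, 0.18 for Tars, 0.19 for Vars, 0.12 for Rars, 0.014 for Hars, 0.059 for Mthfd1l, 0.072 for Yars, 0.047 for Xpot, 0.074 for Kars and 0.056 for Dars. With edgeR's quasi-likelihood test they were 0.23 for Lars, 0.15 for Ppp1r15b, 0.11 for Ddit3, 0.14 for Tars, 0.13 for Vars, 0.079 for Rars, 0.0014 for Mthfd1l, 0.043 for Yars, 0.0014 for Xpot, 0.0013 for Kars and 0.0054 for Dars. With DESeq2 they were 0.21 for Lars, 0.12 for Ppp1r15b, 0.079 for Ddit3, 0.11 for Tars, 0.10 for Vars, 0.050 for Rars and 0.019 for Yars. With limma-voom they were 0.24 for Lars, 0.14 for Ppp1r15b, 0.042 for Ddit3, 0.13 for Tars, 0.14 for Vars, 0.081 for Rars, 0.030 for Mthfd1l, 0.0085 for Yars, 0.0071 for Xpot, 0.014 for Kars and 0.012 for Dars. With the replicate block they were 0.019 for Lars, 0.045 for Ddit3 and 0.014 for Vars, and with Sema3G replicates 2 and 3 averaged -0.013 for Mthfd2. With 1 library left out the range was -0.18 to 0.21 for Aimp1, -0.17 to 0.12 for Mthfd2, -0.038 to 0.019 for Lars, -1.03 to 0.21 for Wars, -0.51 to 0.045 for Ddit3, -0.22 to 0.0066 for Tars, -0.43 to 0.27 for Vars, -0.54 to 0.091 for Mthfd1l, -0.44 to 0.046 for Yars and -0.59 to 0.17 for Kars.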
